A study of Homo sapiens with 3 samples.

Results

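Integrins are the receptors that hold cells to the matrix around them, and laminins are the matrix proteins that many integrins of epithelial cells bind. The 37 genes described here are 26 integrin subunits (18 alpha and 8 beta) and 11 laminin chains (5 alpha, 4 beta and 2 gamma). They were chosen by gene family, not by level, from the 60880 gene rows of 1 RNA-seq library, and all 37 had a row. The library is replicate 2 of wild-type NCI-H1975, an established human lung adenocarcinoma line, cultured with serum and with no drug or knockdown named in its labels. The wider study also holds cells resistant to the kinase inhibitor anlotinib, RNA-seq and ATAC-seq of both states, and a knockdown of TFAP2A, a transcription factor of the AP-2 family. Resistant cells, knockdown cells and the 2 wild-type ATAC-seq samples were not analysed here, so no contrast between cell states was made. With 1 library there was no replicate spread and no test.

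An integrin is 1 alpha and 1 beta subunit that pair inside the cell and reach the surface together. The pair sets the ligand: collagens, laminins, proteins with an arginine-glycine-aspartate (RGD) sequence such as fibronectin, or counter-receptors on other cells. A laminin is a trimer of 1 alpha, 1 beta and 1 gamma chain, secreted into the basement membrane and named by the numbers of its chains. In lung and other epithelia the integrins of ITGA3 and ITGA6 bind laminins that contain the LAMA3 or LAMA5 chain, and the integrin of ITGA6 and ITGB4 anchors the hemidesmosome, a junction between basement membrane and keratin filaments.

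The library held 25012733 counts, so 1 count equalled 0.0400 CPM (counts per 1000000 counts of the library). For a gene at 0 counts the upper limit was set at 0.120 CPM, the equivalent of 3 counts. A gene with at least 10 counts was taken as detected. Other intervals are exact 95% intervals that cover counting error only, since PCR copies cannot be told from separate molecules. No transcript length was used, so every order or ratio of different genes below is one of read numbers and not of molecules. All 8 epithelial markers were detected, from 2677 counts for the splicing factor ESRP1 to 132533 for the keratin KRT7. Of 8 leukocyte markers 2 were detected, of 6 platelet and megakaryocyte markers 2, of 5 muscle markers 2, of 5 endothelial markers 1 and of 4 fibroblast markers 0.

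Of the 26 integrin subunits 20 were detected, and of the 11 laminin chains 9. Over all gene rows 29.4% had at least 10 counts, and over protein-coding genes 69.7%. The median integrin subunit had 282 counts, or 11.3 CPM, and the median laminin chain 549 counts, or 21.9 CPM, beside a median of 247 counts, or 9.87 CPM, for protein-coding genes. Above that median of 247 lay 14 integrin subunits and 6 laminin chains. The integrins held 105179 counts, or 0.421% of the library (0.418% to 0.423%), and the laminins 68287 counts, or 0.273% (0.271% to 0.275%). Few genes carried most of these reads. ITGA3, ITGA5 and ITGB4 held 71.9% of integrin counts (71.6% to 72.1%), and LAMB3, LAMA5 and LAMB2 held 79.7% of laminin counts (79.4% to 80.0%).

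**Figure D1:**
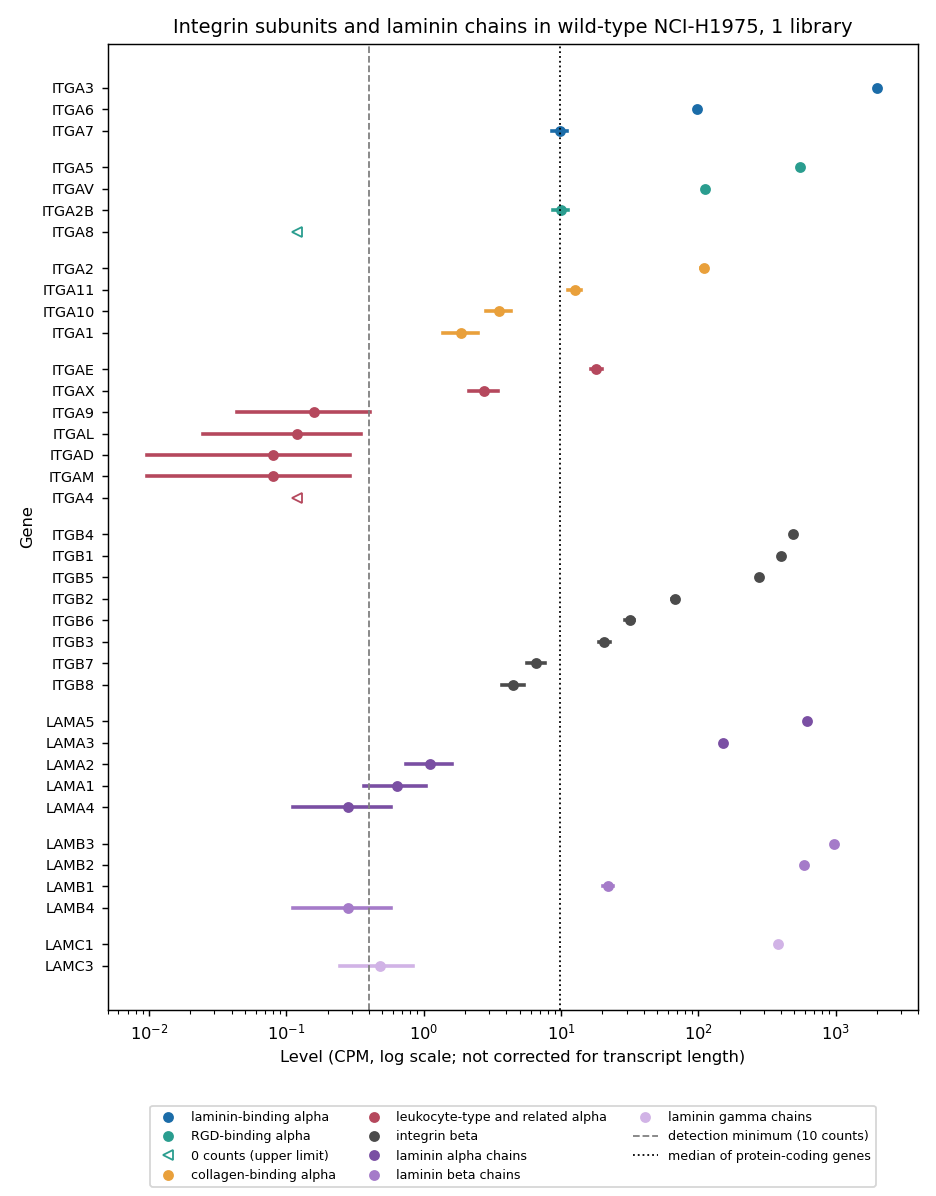
Level in CPM (log axis) of each of the 37 genes in the wild-type library, grouped by class, with exact 95% Poisson intervals for counting error and open triangles at the upper limit of 0.120 CPM for genes at 0 counts. The levels span from ITGA4 and ITGA8 at 0 counts to ITGA3 at 1989.6 CPM, and all 8 beta subunits lie right of the detection minimum.

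Among alpha subunits the laminin-binding class took most reads, almost all of them from 1 gene. ITGA3 (identifier ENSG00000005884.17_2), the alpha subunit of an epithelial receptor for laminins, had 49765 counts, or 1989.6 CPM (1972.1 to 2007.1), more than 99.8% of the detected genes had. It alone held 68.3% of alpha-subunit counts (68.0% to 68.6%), and the laminin-binding class as a whole held 72.0% (71.7% to 72.3%). ITGA6 (ENSG00000091409.14_4), which pairs with ITGB1 or ITGB4, had 2447 counts, or 97.8 CPM (94.0 to 101.8). ITGA3 thus had 20.3 times the reads of ITGA6 (19.5 to 21.2). ITGA7, the laminin receptor subunit of muscle, had 246 counts, or 9.83 CPM (8.64 to 11.1). In the RefSeq gene table ITGA7 overlaps BLOC1S1, which had 154 counts, and reads of overlapping genes cannot be assigned firmly because no source names the strand setting of the counting. The muscle markers DES and ACTA1 had 22 and 17 counts, and CKM, MYH7 and MYOD1 were at 0.

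The RGD-binding class was led by the fibronectin receptor. ITGA5 (ENSG00000161638.10_3), which pairs only with ITGB1, had 13665 counts, or 546 CPM (537 to 556), more than 98.9% of the detected genes had. ITGAV (ENSG00000138448.11_3), which pairs with 5 different beta subunits, had 2791 counts, or 112 CPM (107 to 116). ITGA5 had 4.90 times the reads of ITGAV (4.70 to 5.10). ITGA2B, the alpha subunit of the platelet fibrinogen receptor, had 249 counts, or 9.95 CPM (8.76 to 11.3). The platelet markers PF4, PPBP and GP9 were at 0 and GP1BA had 3 counts, while GP6 had 39 and the transcription factor NFE2 had 570. ITGA8, a subunit known from mesenchymal cells of the kidney, was at 0. The class held 22.9% of alpha-subunit counts (22.6% to 23.2%).

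Collagen-binding alpha subunits were all detected but held only 4.36% of alpha-subunit counts (4.21% to 4.51%). ITGA2 (ENSG00000164171.10_2), the collagen receptor of epithelial cells and platelets, had 2726 counts, or 109 CPM (105 to 113). ITGA11, known from fibroblasts, had 315 counts, or 12.6 CPM (11.2 to 14.1), and ITGA10, known from cartilage, had 88 counts, or 3.52 CPM (2.82 to 4.33). ITGA1 had 47 counts, or 1.88 CPM (1.38 to 2.50), although its gene lies next to ITGA2. Reads of ITGA2 were 58 times those of ITGA1 (43.5 to 79.1). ITGA1 also overlaps PELO, a ribosome rescue factor gene with 869 counts, so its small count is uncertain. Beside ITGA11, the fibroblast markers COL3A1, DCN, LUM and PDGFRA summed to 2 counts.

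Alpha subunits that serve leukocytes were near 0, with 2 exceptions. ITGA4 was at 0, ITGAM and ITGAD had 2 counts each, ITGAL had 3 and ITGA9, which is also found on epithelia and muscle, had 4. ITGAE, the subunit by which intraepithelial lymphocytes hold E-cadherin, had 453 counts, or 18.1 CPM (16.5 to 19.9). Its span overlaps HASPIN, a mitotic kinase gene, with 317 counts, and P2RX5 with 291. ITGAX, a subunit of dendritic cells and macrophages, had 69 counts, or 2.76 CPM (2.15 to 3.49). Its direct neighbours are ITGAM and ITGAD, at 2 counts each. Leukocyte markers summed to 387 counts, of which CORO1A, an actin regulator, had 350. PTPRC, the pan-leukocyte phosphatase, had 2 counts, CD3E, LYZ, SPI1 and TYROBP had 1 each and CD3D was at 0. In bulk RNA, few cells of a type and little RNA per cell cannot be told apart, and the part of other cells in these counts was not tested. The whole class held 0.731% of alpha-subunit counts (0.671% to 0.796%).

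All 8 beta subunits were detected. ITGB4 (ENSG00000132470.13_3), the long-tailed subunit of hemidesmosomes, had the most reads at 12159 counts, or 486 CPM (478 to 495), which was 37.6% of beta-subunit counts (37.1% to 38.2%). It overlaps GALK1, a galactose kinase gene with 1313 counts. ITGB1 (ENSG00000150093.18_3), the partner of 12 alpha subunits, had 9959 counts, or 398 CPM (390 to 406). The ratio of ITGB4 to ITGB1 reads was 1.22 (1.19 to 1.25). ITGB5, a partner of ITGAV, had 6917 counts, or 277 CPM (270 to 283).

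ITGB2, the beta subunit of leukocyte integrins, had 1688 counts, or 67.5 CPM (64.3 to 70.8), 5.22% of beta-subunit counts. A non-coding gene at the same locus, ITGB2-AS1, had 136 counts. The 4 alpha partners of ITGB2 (ITGAL, ITGAM, ITGAX and ITGAD) summed to 76 counts, so that ITGB2 had 22.2 times their reads (17.6 to 28.3). ITGB6, an epithelial subunit, had 789 counts, or 31.5 CPM (29.4 to 33.8), and ITGB3 had 518 counts, or 20.7 CPM (19.0 to 22.6). ITGB7 had 165 counts, or 6.60 CPM (5.63 to 7.68), and overlaps ZNF740, a zinc finger gene with 2303 counts. ITGB8 was lowest at 112 counts, or 4.48 CPM (3.69 to 5.39).

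In the order of integrin read numbers most neighbours differed beyond counting error. The exceptions among detected subunits were ITGAV and ITGA2 (ratio 1.02, 0.971 to 1.08), ITGA2B and ITGA7 (1.01, 0.845 to 1.21), ITGB8 and ITGA10 (1.27, 0.954 to 1.70), ITGA10 and ITGAX (1.28, 0.920 to 1.77), and ITGAX and ITGA1 (1.47, 0.999 to 2.17). How far these positions would shift in another library of the same cells is not known from 1 library.

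Read as heterodimers, 17 of 24 known integrins had both subunits detected. The alpha subunit had the smaller read number in 11 of these and the beta subunit in 6. These pairs are not separate observations, since 9 share the ITGB1 count and 5 share the ITGAV count. In 7 heterodimers the lower subunit still had at least 1000 counts. These were ITGB1 with ITGA3, ITGA5, ITGAV, ITGA2 or ITGA6, the hemidesmosome integrin of ITGA6 and ITGB4, and the vitronectin receptor of ITGAV and ITGB5. They cover laminin, fibronectin, vitronectin and collagen binding.

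ITGB1 is shared by 12 alpha subunits, of which 9 were detected with it. The summed reads of all 12 were 72094, against 9959 for ITGB1, a ratio of 7.24 (7.09 to 7.39). Without ITGA3 the sum was 22329 and the ratio 2.24 (2.19 to 2.30). ITGA3, which has no other known beta partner, by itself had 5.0 times the reads of ITGB1 (4.89 to 5.11), and ITGA5 had 1.37 times (1.34 to 1.41). The remaining detected alpha partners lay below ITGB1, from ITGAV at 0.280 (0.269 to 0.292) to ITGA1 at 0.00472 (0.00347 to 0.00628). A processed copy of ITGB1, the pseudogene ITGB1P1, had 72 counts, or 0.723% of the ITGB1 count, and reads lost to such copies cannot be counted here.

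ITGA6 was the lower subunit with either partner. Its reads were 0.201 times those of ITGB4 (0.193 to 0.210) and 0.246 times those of ITGB1 (0.235 to 0.257). ITGB4 has no other known alpha partner. For ITGAV the beta subunits other than ITGB1 summed to 8336 reads, 2.99 times ITGAV (2.86 to 3.12), and most of these came from ITGB5. ITGAV had 0.403 times the reads of ITGB5 (0.386 to 0.422) but exceeded the others, at 3.54 times ITGB6 (3.27 to 3.83), 5.39 times ITGB3 (4.90 to 5.93) and 24.9 times ITGB8 (20.6 to 30.4). ITGB6 and ITGB8, whose integrins with ITGAV activate latent TGF-beta, differed from each other by a ratio of 7.04 (5.77 to 8.67). In the platelet integrin ITGA2B had 0.481 times the reads of ITGB3 (0.412 to 0.560), and in the E-cadherin receptor ITGAE had 2.75 times those of ITGB7 (2.29 to 3.30).

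In the other 7 heterodimers the alpha subunit was the one under 10 counts. They were ITGB1 with ITGA4, ITGA8 or ITGA9, ITGB7 with ITGA4, and ITGB2 with ITGAL, ITGAM or ITGAD. The only ITGB2 heterodimer with both subunits detected was that with ITGAX, at 69 counts against 1688 for ITGB2.

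**Figure D2:**
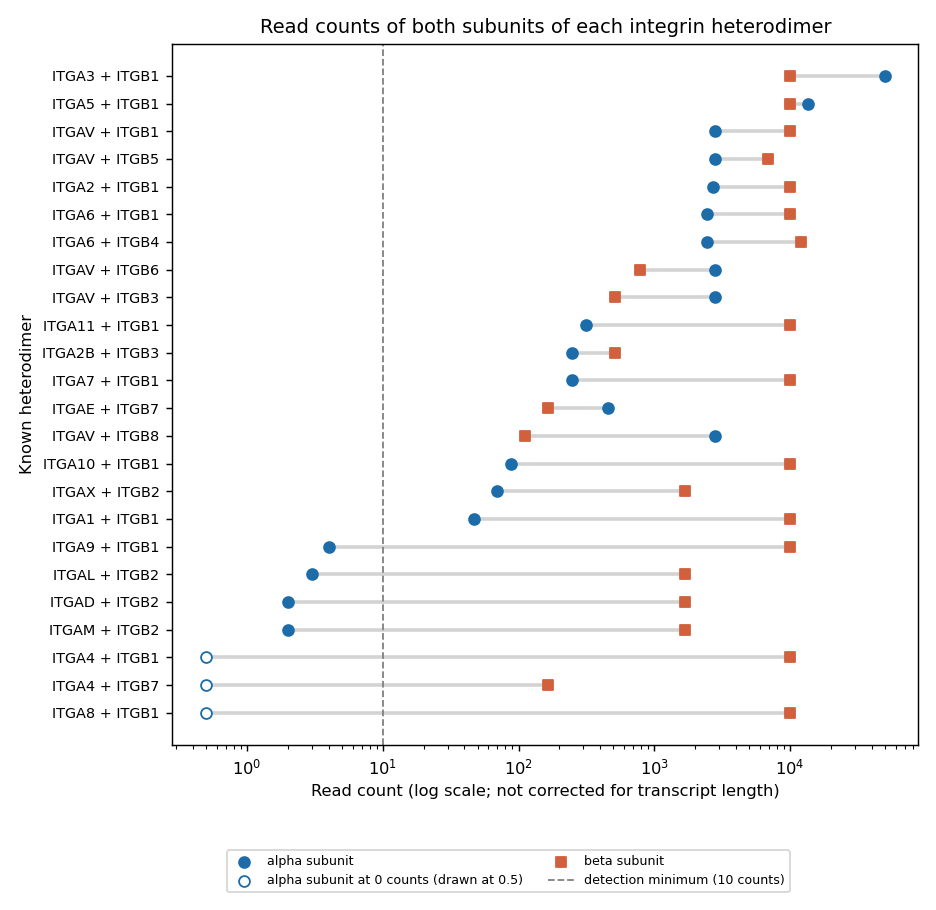
Read counts (log axis) of the alpha subunit (circles) and the beta subunit (squares) of 24 known integrin heterodimers, ordered by the lower of both counts, with alpha subunits at 0 counts drawn as open circles at the left. The first 7 rows have both subunits at 2447 counts or more, and in the last 7 rows the alpha subunit lies under 10 counts.

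Laminin chains had either at least 3762 counts or at most 28, with LAMB1 alone between. Among alpha chains LAMA5 (ENSG00000130702.15_3), the alpha chain of most adult basement membranes, had 15560 counts, or 622 CPM (612 to 632). LAMA3 (ENSG00000053747.16_4), the alpha chain of epithelial anchoring laminins, had 3762 counts, or 150 CPM (146 to 155). Reads of LAMA5 were 4.14 times those of LAMA3 (3.99 to 4.29), and the 2 genes held 80.3% and 19.4% of alpha-chain counts. LAMA2, the alpha chain of muscle and nerve, had 28 counts, LAMA1, an early embryonic chain, had 16, and LAMA4, a chain of vessel walls, had 7. The share of LAMA4 in alpha-chain counts was 0.0361% (0.0145% to 0.0744%).

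Among beta chains LAMB3 (ENSG00000196878.14_3), which occurs with the LAMA3 chain in epithelial anchoring laminin, had 24303 counts, or 972 CPM (959 to 984), the most of any laminin gene and more than 99.5% of the detected genes had. Its reads were 6.46 times those of LAMA3 (6.24 to 6.69). LAMB2 (ENSG00000172037.13_2) had 14580 counts, or 583 CPM (573 to 592), and LAMB1 had 549, or 21.9 CPM (20.2 to 23.9). LAMB2 and LAMB1 are the alternative beta chains of laminins with LAMA5, and LAMB2 had 26.6 times the reads of LAMB1 (24.4 to 29.0). LAMB4, the direct neighbour of LAMB1, had 7 counts. The LAMB2 pseudogene LAMB2P1 had 34 counts, or 0.233% of the LAMB2 count.

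Of the 2 gamma chains described here, LAMC1 (ENSG00000135862.5_2), the gamma chain of most laminins, had 9463 counts, or 378 CPM (371 to 386). LAMC3 had 12 counts, or 0.480 CPM (0.248 to 0.838). LAMC1 had 789 times the reads of LAMC3 (451 to 1527). In the laminin order LAMA2 and LAMA1 (ratio 1.75, 0.915 to 3.46) and LAMA1 and LAMC3 (1.33, 0.592 to 3.09) were the only neighbouring detected chains that did not differ beyond counting error.

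Of 13 trimers with LAMC1 or LAMC3 as the gamma chain, 10 had all chains detected, but in only 2 did the lowest chain reach 1000 counts. Laminin-521 had 15560 counts for LAMA5, 14580 for LAMB2 and 9463 for LAMC1, the closest set of the 13. In it LAMA5 had 1.64 times the reads of LAMC1 (1.60 to 1.69) and LAMB2 had 1.54 times (1.50 to 1.58). Laminin-321 had the same beta and gamma chains with LAMA3, at 0.398 times the reads of LAMC1 (0.383 to 0.413). Laminin-511 and laminin-311 were limited in reads by LAMB1, which had 0.0580 times the reads of LAMC1 (0.0531 to 0.0632). Every trimer with LAMA1, LAMA2, LAMA4 or LAMC3 had a lowest chain of 28 counts or fewer.

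**Figure D3:**
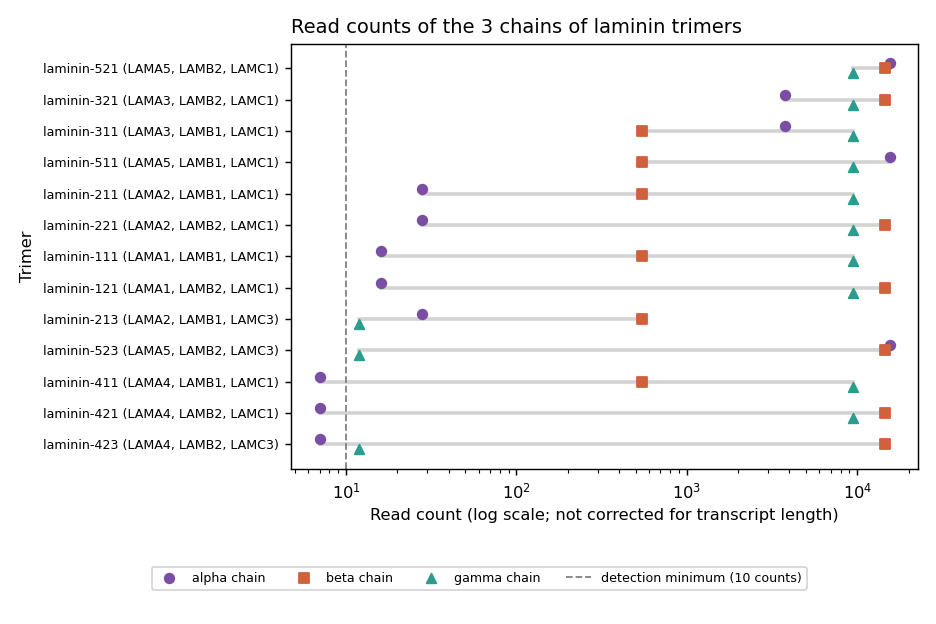
Read counts (log axis) of the alpha (circles), beta (squares) and gamma chain (triangles) of 13 laminin trimers, ordered by the lowest of the 3 counts. Laminin-521 has its 3 chains between 9463 and 15560 counts, and the last 9 trimers each have a chain at 28 counts or fewer.

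Promoters of these genes were read for the letters of the AP-2 motif, since TFAP2A is the factor the study knocked down. Of the 37 genes 26 had an entry in the RefSeq promoter table (GRCh38.p14, while hg19 is the build named for the study), with 33 windows of 250 bases upstream of a transcript start. ITGA3, ITGB4 and ITGB2, all with at least 1000 counts, had no entry, so the shares below do not cover them. The AP-2 letters GCCNNNGGC, which read the same on both strands, occurred in 8 of 33 windows, or 24.2%, against 19.8% of all 35116 windows in the table. The 7 genes with them were ITGA2, ITGA6, ITGA8, ITGB1, ITGB5, LAMA5 and LAMC1. Among genes with at least 1000 counts, 7 of 18 windows (11 genes) held these letters, or 38.9%, against 28.7% of 6364 windows of all genes at that count level. Among genes with fewer counts, 1 of 15 windows (15 genes) held them, that of ITGA8 at 0 counts, or 6.67%, against 20.3% of 19283 windows. Split further, 0 of 10 windows of genes with at least 10 and under 1000 counts held the letters, against 24.7%. Under 10 counts it was 1 of 5, or 20%, against 14.9%. The 5 genes with several windows all have at least 1000 counts, and the shares over all genes rest on the 73.0% of windows in the table whose gene had a row among the counts. With so few windows these shares are a description. GC content moved with the letters. Its median was 75.8% in windows of these families that held them and 54% in windows that did not, beside 69.2% and 54.8% over the whole table, and its part was not tested.

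The AP-1 letters TGANTCA, also the same on both strands, occurred in windows of 2 genes, LAMA3 and LAMB3, or 6.06% of the 33 windows. Of all windows in the promoter collection, 6.57% had them. The window of LAMA3 held 2 matches and 1 of the 3 windows of LAMB3 held 1. The GC box GGGCGG, on either strand, occurred in 17 of 33 windows, or 51.5%, against 42.6% of all windows. The E-box CAGGTG, on either strand, occurred in 8 of 33, or 24.2%, against 17.5%, and the TATA box TATAAA, on either strand, in 2 of 33, or 6.06%, against 10.7%. A match is a description of letters and shows no binding.

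Shown here are the windows of LAMA3 and LAMB3 with their AP-1 letters, the ITGB5 window with 2 AP-2 matches, and the ITGA8 window, which has an AP-2 match although the gene was at 0 counts. Each is the 250 bases before a RefSeq start, 5′ to 3′ on the strand of the gene, with AP-1 or AP-2 matches in capitals. They lie in GRCh38.p14 at chr18:23872770-23873019 on the plus strand for LAMA3, and at chr1:209651375-209651624 for LAMB3, chr3:124887685-124887934 for ITGB5 and chr10:15719923-15720172 for ITGA8 on the minus strand.
LAMA3: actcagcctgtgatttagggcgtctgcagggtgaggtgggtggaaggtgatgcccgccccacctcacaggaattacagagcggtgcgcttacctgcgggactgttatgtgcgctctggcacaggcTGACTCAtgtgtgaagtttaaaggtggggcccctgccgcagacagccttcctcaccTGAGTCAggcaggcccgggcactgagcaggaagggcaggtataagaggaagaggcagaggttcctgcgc
LAMB3: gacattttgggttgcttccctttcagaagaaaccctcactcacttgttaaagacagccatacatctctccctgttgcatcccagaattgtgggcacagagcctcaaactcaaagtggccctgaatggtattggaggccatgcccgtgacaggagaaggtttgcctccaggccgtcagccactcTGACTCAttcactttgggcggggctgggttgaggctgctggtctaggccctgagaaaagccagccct
ITGB5: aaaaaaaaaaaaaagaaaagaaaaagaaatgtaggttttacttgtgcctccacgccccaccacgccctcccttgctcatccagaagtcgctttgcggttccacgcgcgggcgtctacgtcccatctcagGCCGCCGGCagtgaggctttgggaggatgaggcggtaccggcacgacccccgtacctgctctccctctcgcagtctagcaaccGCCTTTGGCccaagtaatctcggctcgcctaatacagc
ITGA8: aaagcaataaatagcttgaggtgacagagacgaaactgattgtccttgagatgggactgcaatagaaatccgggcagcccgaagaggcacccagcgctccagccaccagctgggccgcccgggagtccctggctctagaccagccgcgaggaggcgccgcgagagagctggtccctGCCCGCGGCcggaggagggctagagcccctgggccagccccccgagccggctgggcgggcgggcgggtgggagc

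CpG content of the windows was set beside that of all genes at the same count level. The ratio of observed to expected CpG had a median of 0.542 over the 18 windows of integrin and laminin genes with at least 1000 counts, against 0.815 over all genes at that level. It was 0.393 over 10 windows of genes with at least 10 and under 1000 counts, against 0.760, and 0.386 over 5 windows of genes under 10 counts, against 0.317. Single windows departed widely from these medians, with ITGA4 at 0 counts at a ratio of 0.770 and the AP-1 window of LAMB3 at 0.165. Windows of 1 gene share sequence where its starts lie close together, as the windows of LAMB3 do in part, so these values are a description.

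**Figure D4:**
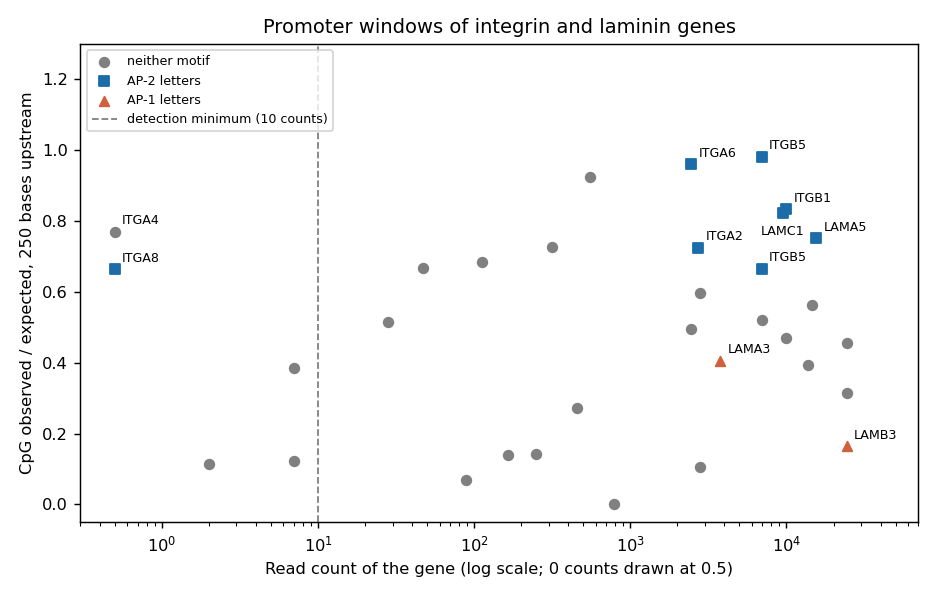
Ratio of observed to expected CpG in the 250 bases upstream of each RefSeq start (vertical axis) against the read count of the gene (log axis), for 33 windows of 26 integrin and laminin genes, with windows that hold AP-2 letters as squares, AP-1 letters as triangles and neither as circles. All AP-2 windows but that of ITGA8 belong to genes with at least 2447 counts, and the AP-1 windows of LAMA3 and LAMB3 lie at 0.406 and 0.165.

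Genes that act with integrins and laminins were read from 10 lists. Their detected numbers stand beside the 69.7% of protein-coding genes that had at least 10 counts. No list was tested against that share. Of 17 genes for cytoplasmic activators and inhibitors of integrins 15 were detected, with a median of 34.9 CPM. These are RNA reads, and no protein or activity was measured. Talin TLN1, which binds beta tails and links them to actin, had 14241 counts, or 569 CPM (560 to 579), the adaptor ILK had 3055 and SHARPIN, an inhibitor that binds alpha tails, had 1707. Of the kindlins, the epithelial FERMT1 had 1469 counts, FERMT2 had 1173 and the blood cell form FERMT3 had 66. PARVG, a parvin of blood cells, had 7 counts and the RAP1 effector APBB1IP had 1. All 9 kinases and adaptors close to integrins were detected, led by the scaffolds BCAR1 with 8518 counts and PXN with 7695 and by CRKL with 2729, while the focal adhesion kinase PTK2 had 1399. Of 11 trafficking genes 9 were detected, led by ARF6 with 5407 counts, SNX17 with 4649 and RAB11FIP1 with 3020, with SNX31 at 2 counts and DAB2 at 0.

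Genes for partners in the membrane had many reads. Of 12 tetraspanins and lateral partners 11 were detected, with a median of 225 CPM. BSG had 27199 counts, CD63 had 13174 and the CD98 heavy chain SLC3A2 had 12246. CD151, the tetraspanin that associates tightly with laminin-binding integrins, had 10456 counts, or 418 CPM (410 to 426), and TSPAN8 had 6 counts. Of the hemidesmosome partners of ITGA6 and ITGB4, plectin (PLEC) had 55890 counts, or 2234.5 CPM (2216.0 to 2253.1), DST had 6917 and the transmembrane collagen COL17A1 had 1254. The basal keratins KRT14 and KRT5, which attach there in stratified epithelium, had 8 and 2 counts.

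All 8 other laminin receptors were detected, with a median of 315 CPM. RPSA had 28708 counts but has many processed copies, so its value is uncertain. CD44 had 11793 counts and the syndecan SDC1 had 10418, while DAG1, which encodes dystroglycan, had 6478 and the Lutheran glycoprotein BCAM, a receptor for LAMA5, had 5214. SDC2 was lowest at 34 counts.

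Basement membrane partners of laminin divided sharply. Of 14 genes 9 were detected, and their median over all 14 was 0.640 CPM. The proteoglycans agrin (AGRN) and perlecan (HSPG2) had 25805 and 5766 counts, or 1031.7 CPM (1019.1 to 1044.3) and 231 CPM (225 to 237), and the laminin-like netrin NTN4 had 1806 counts. The nidogens, which link laminin to collagen IV, were at the minimum or just above it with 10 counts for NID1 and 19 for NID2. Of the collagen IV chains, COL4A1 had 8 counts, COL4A2 had 13, COL4A3 had 1, COL4A4 had 3, COL4A5 had 64 and COL4A6 had 77. EGFLAM and FREM2 were at 0. COL4A1 and COL4A2 are the chains of the common network, and beside their small counts LAMA2 had 28 and LAMA5 had 15560.

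Ligands of the other integrin classes ranged widely. Of 19 RGD-type ligands and linked genes 13 were detected, a share near the 69.7% over protein-coding genes. Fibronectin (FN1), the ligand of ITGA5 with ITGB1, had 34838 counts, or 1392.8 CPM, tenascin (TNC) had 26773 and CCN1 had 2962. For the TGF-beta-activating integrins of ITGAV, TGFB1 had 1337 counts, TGFB3 had 190 and the latency protein LTBP1 had 1671, while LRRC32, which presents latent TGF-beta on cell surfaces, had 4. NPNT, a ligand of ITGA8 with ITGB1, had 2 counts and IBSP was at 0. Of 8 collagen ligands 7 were detected, led by COL5A1 with 17047 counts, COL1A1 with 7847 and COL6A1 with 5794, with COL3A1 at 2. Of 9 counter-receptors 6 were detected. CDH1, which encodes E-cadherin, had 10561 counts, F11R had 2793 and ICAM1, a ligand of ITGB2 integrins, had 2503. MADCAM1 had 51 counts, while VCAM1, a ligand of ITGA4 integrins, JAM2 and JAM3 were at 0.

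**Figure D5:**
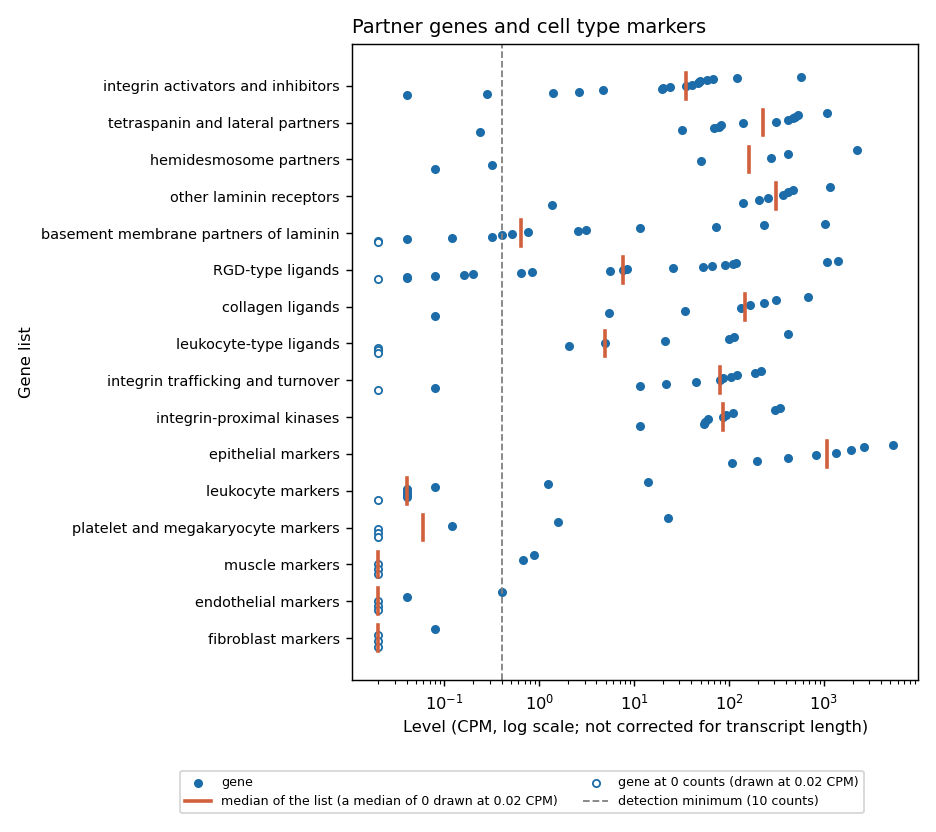
Level in CPM (log axis) of every gene of 10 partner lists and 6 marker lists, with the list median as a vertical bar and genes at 0 counts as open circles at the left edge. Basement membrane partners spread from 0 to 1031.7 CPM with a median of 0.640 CPM, whereas laminin receptors other than integrins have a median of 315 CPM.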

How the data were processed

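RNA-seq was made from total RNA of wild-type NCI-H1975 with a directional library kit, per the labels' protocols. The authors deposited raw, whole-number read counts per Ensembl gene for replicate 2, not normalised. The submitters' processing notes name STAR, featureCounts and build hg19 without a role for each. Annotation release, strand setting and treatment of shared reads: not given in the sources used here. Reads of overlapping, antisense or copied genes are therefore uncertain.

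Identifiers were matched without version to current symbols (56414 of 60880 rows, 99.8% of counts). CPM used the total over all rows. Levels have exact Garwood Poisson intervals, shares Clopper-Pearson intervals and ratios the conditional exact interval, all at 95%. For a count of 0 the upper limit of the level was instead set at 3 counts. The level and ratio intervals were run on simulated Poisson counts. Such counts hold no PCR copies, so this checked the calculation only and not how the intervals fit these data. Division by transcript length was planned, but no transcript length was used. Overlapping and neighbouring genes, without coordinates, and promoter sequences came from RefSeq (GRCh38.p14). Python 3.11.15, NumPy 2.4.6, SciPy 1.17.1, pandas 2.3.3 and Matplotlib 3.10.9 were used.

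The members and lists were chosen with earlier results of these data known. All members are named, as are the 3 highest genes and up to 3 genes under 10 counts of each list. Other list genes, the promoter motifs and the sequences shown were added after counts were seen. A few genes of these families and lists are not reported here.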

Additional observations from a re-analysis of the deposited data

How the results depend on the processing

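Detected numbers stayed within 1.5 times of their values at a minimum of 1 count, 50 counts or 1 CPM and after random thinning of the counts to 50%. Integrin subunits detected ranged from 19 to 24 and laminin chains from 6 to 11, and partner genes from 91 to 125 around 103. Leaving mitochondrial genes out of the total gave a share of 0.444% for integrins and 0.289% for laminins, and a total without the 10 most-read genes gave 0.453% and 0.294%, because the total shrank. After thinning, 11 of 13 fixed ratios lay inside their intervals, LAMB3 to LAMA3 became 6.15 and LAMA5 to LAMA3 became 3.92, and all 17 heterodimers kept the same lower subunit. Ratios divided by transcript or coding length were not run, because no such length was used, and ratios near 1 could change direction with it. Depth limits the genes under 10 counts. No paired analysis was possible because there was 1 library and no pair.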

Other observations

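Lists read in addition covered the sugar chain by which dystroglycan binds laminin, collagen receptors that are not integrins, and proteins related to integrins. All 12 enzymes that build the dystroglycan sugar chain were detected, beside 69.7% of protein-coding genes, with a median of 22.9 CPM. POMT2, which starts the chain, had 1861 counts, POMGNT1 had 1322 and POMT1 had 907. POMK, a kinase that acts on the growing chain, had 74 counts. The collagen receptor kinase DDR1, known from epithelia, had 3450 counts, or 138 CPM (133 to 143), against 48 for DDR2, known from mesenchymal cells, and 2726 for the collagen-binding integrin subunit ITGA2. CIB1, which binds the tail of ITGA2B, had 3618 counts beside 249 for ITGA2B itself. These lists were chosen after the counts of the integrin and laminin genes had been seen.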
